A study of Mus musculus with 38 samples.

Results

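The genes described here are 38 genes of ribosome biogenesis, taken by their symbols, with no measured value in the rule. All probe sets annotated to exactly 1 of these symbols were taken, which gave 75 of the 45101 probe sets of the array and 37 of the 38 genes. The remaining gene, Mrto4, an assembly factor of the large subunit, was read by a single probe set that also carries the symbols of pseudogenes, so it was not tested as a gene. Of the 75 probe sets, 68 passed a filter on dim values, and all 37 genes kept at least 1 of them. The tests covered 13333 genes in all.

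Ribosomes are built in the nucleolus, where RNA polymerase I copies the ribosomal DNA into a long precursor. Small nucleolar RNA-protein particles (snoRNPs) modify this precursor, and large assemblies of processing factors cut and fold it into the small and the large subunit, which are then exported and finished in the cytoplasm. Growing and dividing blood progenitors make ribosomes at a high rate, and the transcription factor Myc is known as a general activator of genes of this pathway.

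The data are readings of RNA from whole marrow on Affymetrix arrays, with 1 array for each of 38 mice. In 34 mice, marrow progenitors bearing c-kit had been infected with a retrovirus encoding an MLL fusion oncogene and given to lethally irradiated C57BL/6 mice of the same strain, male or female, whose marrow was sampled at euthanasia. MLL-AF1p was carried by 9 mice, MLL-AF10 by 8, MLL-ENL by 7, and MLL-GAS7 and MLL-AF9 by 5 each. The 4 normal marrows came from wild type C57BL/6 mice of either sex, for which no transplant, irradiation or virus is named. All marrow cells were stored frozen before RNA extraction. Ages, the promoter that drives the oncogene and the share of host cells left in the leukaemic marrow are not given in the sources used here. The leukaemic mice are named by cohort and by the number in their label, and each array was taken as 1 mouse.

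All levels and differences below are on the scale log2(intensity + 46.1) after each array was shifted to a common median, so a difference of 1 is close to a doubling and changes of dim probe sets are understated. Levels of different genes were not set against each other, since each rests on its own probes. A gene was called when its p, adjusted by Benjamini-Hochberg across the 13333 genes, was under 0.05. Across the arrays the median intensity ran from 129.2 to 208.3. The number of mice, 4 in the normal group, limits the precision. In whole marrow, fewer cells of a type and less RNA per cell cannot be told apart.

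Marker genes were read beside the members. In the leukaemic marrows 16 of 17 erythroid markers, 14 of 14 B cell markers, 9 of 11 T and NK cell markers, 8 of 9 megakaryocyte markers and 7 of 9 late neutrophil markers were lower than in normal marrow. The summed intensity of the erythroid markers was 142000 to 207000 in the normal marrows and 3380 to 5930 in the leukaemias, without overlap, and no marker of any list was at 0. Of 5 primary granule genes, 3 were higher and 0 lower, and 13 of 19 mitosis genes were lower with 0 higher (median -0.64). The part of these cell types in the results below was not tested. Of 7 genes of white and myeloid cells 4 were higher and 1 lower (median 0.60, from -1.31 to 1.43). The highest of them, Csf1r, a receptor of monocytic and other myeloid cells, was above all normal marrows in 34 of 34 leukaemias (log2 change 1.43 ± 0.20 SE, adjusted p = 5.14e-07). The list did not move in 1 direction, since 4 of its 7 changes were above 0 and the lowest was -1.31. The leukaemias also fell into 2 sets that no label names and that were read from 30 other probe sets. The first held 16 leukaemias and the second 18, and all 4 normal marrows were assigned to the second. Scores from these probe sets were at most -0.7445 in leukaemias of the first set and at least 0.7503 in those of the second. The normal marrows scored between them, from 0.01423 in normal mouse 2 to 0.7324 in normal mouse 4. Their place in the second set is thus less clear than that of the leukaemias. Comparisons with normal marrow below that use the sets rest on it. Each cohort had arrays in both sets.

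The upstream bases of 5 members on which the results below turn are shown first, as stored in RefSeq for build GRCm38.p6: Ebna1bp2 and Utp18, which differed among the cohorts, Heatr1 and Ltv1, which were lower in MLL-GAS7, and Nop10, which was above normal in every leukaemia. Each run holds the 250 bases before the gene's start, 5′ to 3′ on the gene's strand. Capitals mark letters that match, on either strand, CACGTG (an E-box, the letters bound by Myc), CCGGAAG (ETS-type), AAGATGG (YY1-type) or GGGCGG (a GC box). Their positions are chr4:118620549-118620798, plus strand (Ebna1bp2), chr11:93885767-93886016, minus strand (Utp18), chr13:12395125-12395374, plus strand (Heatr1), chr10:13193138-13193387, minus strand (Ltv1) and chr2:112261676-112261925, plus strand (Nop10).
Ebna1bp2: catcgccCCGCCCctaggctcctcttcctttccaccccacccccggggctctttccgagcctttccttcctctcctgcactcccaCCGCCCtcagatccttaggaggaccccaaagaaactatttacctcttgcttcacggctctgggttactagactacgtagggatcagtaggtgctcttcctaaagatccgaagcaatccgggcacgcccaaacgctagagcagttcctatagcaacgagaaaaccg
Utp18: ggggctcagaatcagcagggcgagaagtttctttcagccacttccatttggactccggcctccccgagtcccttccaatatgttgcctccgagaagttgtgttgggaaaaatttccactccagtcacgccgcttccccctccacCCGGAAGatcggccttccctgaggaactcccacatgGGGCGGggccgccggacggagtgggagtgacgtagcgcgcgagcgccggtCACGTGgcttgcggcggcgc
Heatr1: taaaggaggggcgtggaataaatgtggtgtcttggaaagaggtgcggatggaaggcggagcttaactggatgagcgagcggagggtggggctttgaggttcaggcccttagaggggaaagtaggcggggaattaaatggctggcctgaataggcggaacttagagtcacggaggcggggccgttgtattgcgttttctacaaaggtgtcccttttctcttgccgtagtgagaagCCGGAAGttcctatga
Ltv1: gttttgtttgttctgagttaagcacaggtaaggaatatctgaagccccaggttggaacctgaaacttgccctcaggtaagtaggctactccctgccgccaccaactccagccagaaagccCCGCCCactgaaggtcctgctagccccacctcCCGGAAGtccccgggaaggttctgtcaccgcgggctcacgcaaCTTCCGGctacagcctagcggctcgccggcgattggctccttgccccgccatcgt
Nop10: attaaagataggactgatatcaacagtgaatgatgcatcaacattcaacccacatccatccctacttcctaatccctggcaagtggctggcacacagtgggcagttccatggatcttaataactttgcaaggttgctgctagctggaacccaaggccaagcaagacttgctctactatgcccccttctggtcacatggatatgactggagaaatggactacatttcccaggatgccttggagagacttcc

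A promoter entry was present for 33 of the 38 members. The ETS-type letters stood in 9 of the 33 (27.3%), against 14.3% of the 10759 tested genes with an entry and 6.91% of all 32851 promoters of this length in the table. Ltv1 held them once on each strand, Utp18 once and Heatr1 once, from 16 to 10 bases before its start. The E-box letters stood in 2 of the 33 (6.06%), Nop2 and Utp18, against 9.5% of tested genes and 6.02% of all promoters. In Utp18 they lay from 20 to 15 bases before the start. GC box letters were in 22 members (66.7%, against 59.8% of tested genes and 32.7% of all promoters) and the YY1-type letters in 1, Tsr1 (3.03%, against 5.13% and 4.49%). The upstream bases of Nop10 held none of these letters. The median GC content was 56.8% in the members and 59.2% in the tested genes. These matches describe the letters of the windows and were not tested as binding sites.

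Leukaemic marrow was compared with normal marrow as the unweighted mean of the 5 cohorts minus the normal mean. Of the 37 members, 22 were higher and 0 lower, while 29.1% of all genes tested were called higher and 12.8% lower. At an unadjusted p under 0.05, limma gave 24 members higher and 0 lower (33.7% and 15.1% of all genes). The median change of the members was 0.57 against 0.16 over all genes, and 35 of the 37 changes were above 0. The rises of the called members ran from 1.30-fold (Pes1) to 2.16-fold (Ltv1). In 2 members, Wdr43 and Nop10, all 34 leukaemias lay above all 4 normal marrows, a separation seen in 4.85% of all genes (646 genes). In 15 of the members at least 30 of 34 leukaemias lay above all normal marrows. The share of all genes at that cut was not counted, so this number is not read as particular to the members. By another measure, taken in each leukaemia alone, 25.4% to 51.6% of all genes lay above all normal marrows. Without the shift to a common median the median of all genes moved from 0.16 to 0.04 and that of the members from 0.57 to 0.45, and the share of higher genes among all calls went from 69.4% to 57.0%, while the members gave 20 higher and 0 lower.

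**Figure D1:**
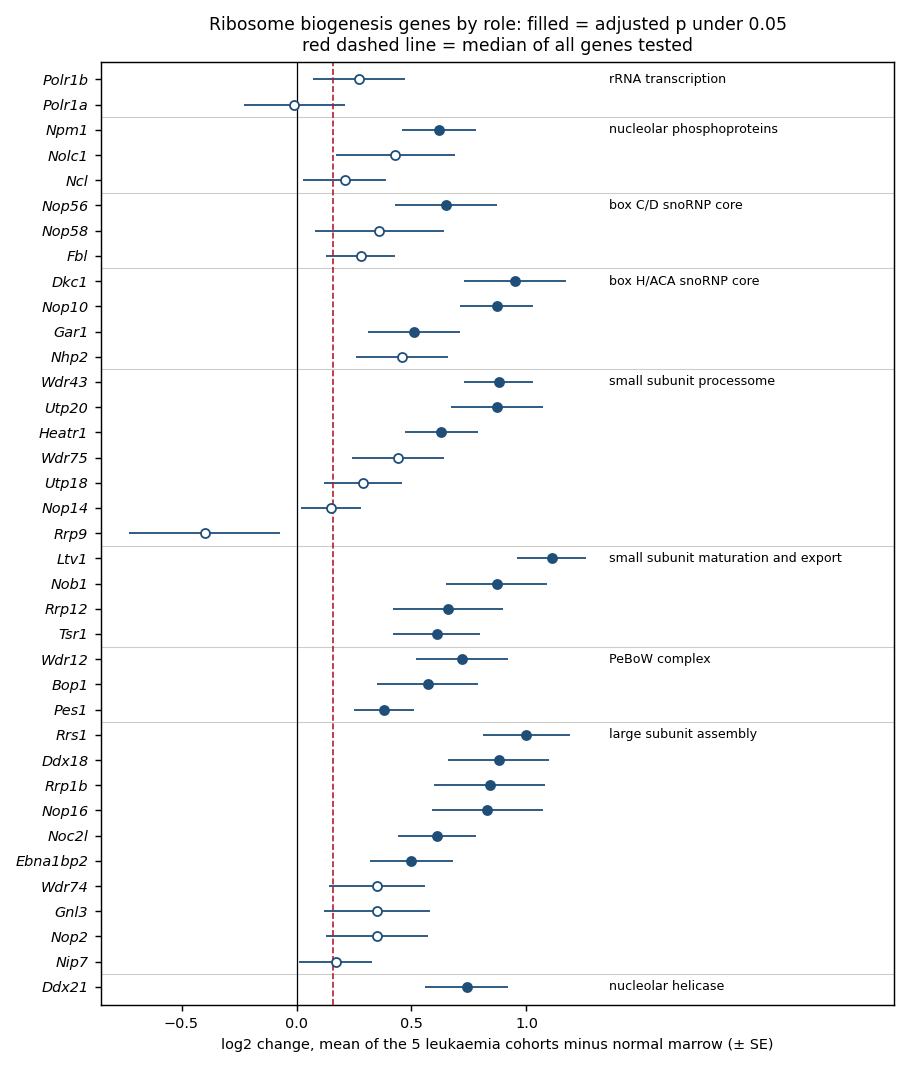
Log2 change of each of the 37 members (mean of the 5 leukaemia cohorts minus normal marrow, point ± SE), in order of role; filled points passed an adjusted p of 0.05, and the red dashed line is the median of all genes tested, 0.16. All 4 small subunit maturation genes and all 3 PeBoW genes are filled, while both RNA polymerase I subunits are open, at -0.01 (Polr1a) and 0.27 (Polr1b).

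The members that copy the ribosomal DNA did not pass the test. Polr1a, the largest subunit of RNA polymerase I, had a mean of 9.31 ± 0.05 (SD, n = 4) in normal marrow and changed by -0.01 ± 0.22 (SE, adjusted p = 0.974). Polr1b, its second largest subunit, stood at 8.83 ± 0.15 in normal marrow and changed by 0.27 ± 0.20 (adjusted p = 0.301). Both genes differed between the array sets, by 0.48 ± 0.13 for Polr1a (adjusted p = 0.0123) and 0.56 ± 0.10 for Polr1b (adjusted p = 0.000186), higher in the set that holds the normal marrows. With the set as a term in the model Polr1b was called higher (0.54, adjusted p = 0.00591), as it was within that set alone (0.53, 0.00564). Ddx21, a nucleolar RNA helicase that takes part in ribosomal RNA transcription and processing, rose 1.67-fold (0.74 ± 0.18, adjusted p = 0.00116), with 30 of 34 leukaemias above all normal marrows.

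Among the abundant nucleolar phosphoproteins, Npm1 (nucleophosmin), a chaperone of the nucleolus that is mutated in human myeloid leukaemia, rose 1.54-fold, from 12.83 ± 0.17 in normal marrow (0.62 ± 0.16, adjusted p = 0.00203). Ncl (nucleolin), which binds the nascent precursor, changed by 0.21 ± 0.18 (adjusted p = 0.353), and none of its 5 probe sets was called. Nolc1, a partner of the snoRNPs in the nucleolus, changed by 0.43 ± 0.26 (adjusted p = 0.184). Of the 3 members from the core of the box C/D snoRNPs, which carry out 2′-O-methylation, Nop56 rose 1.57-fold (0.65 ± 0.22, adjusted p = 0.0173, and 0.0868 without normal mouse 3). The methyltransferase Fbl changed by 0.28 ± 0.15 (adjusted p = 0.146) and Nop58 by 0.36 ± 0.28 (adjusted p = 0.312). Nop58 also differed between the array sets, by -0.59 ± 0.16 (adjusted p = 0.0147), lower in the set with the normal marrows.

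The core of the box H/ACA snoRNPs, which convert uridine to pseudouridine, is also part of telomerase and had 3 of its 4 genes called higher. Dkc1, the pseudouridine synthase, read 11.07, 10.88, 10.64 and 10.81 in normal mice 1 to 4. Its lowest, median and highest levels were 10.58, 11.66 and 12.23 in the MLL-AF1p cohort, 11.13, 11.58 and 12.29 in MLL-AF10 and 12.10, 12.19 and 12.76 in MLL-ENL. The 5 MLL-GAS7 mice read 10.73, 11.05, 11.53, 11.71 and 12.30, and the 5 MLL-AF9 mice 11.21, 11.94, 12.09, 12.20 and 12.36. All MLL-AF10, MLL-AF9 and MLL-ENL mice lay above the normal range, whereas 1 MLL-AF1p mouse lay below it and 2 of the MLL-GAS7 mice did not exceed it. The rise of Dkc1 was 1.93-fold (0.95 ± 0.22 SE, adjusted p = 0.000779).

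Nop10, the smallest protein of the same core, read 12.38, 12.46, 12.22 and 12.35 in the 4 normal mice. Across the larger cohorts its lowest, median and highest levels were 12.89, 13.17 and 13.76 in the MLL-AF1p cohort, 12.70, 13.24 and 13.62 in MLL-AF10 and 13.20, 13.43 and 13.97 in MLL-ENL. In MLL-GAS7 the mice read 12.49, 12.96, 13.18, 13.26 and 13.57, and in MLL-AF9 12.72, 13.21, 13.29, 13.36 and 13.47. No leukaemia of any cohort overlapped the normal marrows. Nop10 rose 1.83-fold (0.87 ± 0.16, adjusted p = 1.96e-05). Gar1 rose 1.42-fold (0.51 ± 0.20, adjusted p = 0.0348), a call that was lost without normal mouse 1, 3 or 4 (adjusted p up to 0.162), and with the values as deposited (0.0621) or after quantile normalization (0.06). The fourth gene, Nhp2, changed by 0.46 ± 0.20 (adjusted p = 0.0605).

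In the small subunit processome, the assembly that forms on the 5′ part of the precursor, 3 of 7 members were higher. Wdr43 (UTP5) read 10.18, 10.05, 10.01 and 9.90 in normal mice 1 to 4. Its lowest, median and highest levels were 10.70, 10.92 and 11.36 in the MLL-AF1p cohort, 10.34, 10.82 and 11.28 in MLL-AF10 and 10.92, 10.99 and 11.31 in MLL-ENL. In MLL-GAS7 mice it read 10.34, 10.52, 10.55, 10.74 and 11.34, and in MLL-AF9 mice 10.44, 10.90, 11.03, 11.11 and 11.44. Every leukaemia lay above the normal range, and the cohorts overlapped each other widely. Wdr43 rose 1.84-fold (0.88 ± 0.15, adjusted p = 1.11e-05). Utp20 rose 1.83-fold (0.87 ± 0.20, adjusted p = 0.000527), and Heatr1 (UTP10), which is also needed for RNA polymerase I transcription, 1.55-fold (0.63 ± 0.16, adjusted p = 0.00193).

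The other 4 processome members did not pass the test. Wdr75 changed by 0.44 ± 0.20 (adjusted p = 0.0832), Utp18 by 0.29 ± 0.17 (0.188) and Nop14 by 0.15 ± 0.13 (0.38). Rrp9, the U3 snoRNA-binding protein, had the lowest estimate of all members, -0.40 ± 0.33 (adjusted p = 0.345). It was dim, with a normal mean of 7.49 ± 0.67 (SD, n = 4). Of 34 leukaemias, 2 lay above all normal marrows and 17 below all of them.

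All 4 members of late small subunit maturation and export were higher. Ltv1, an assembly and export factor of the pre-40S particle, had the largest rise of the 37 genes. It read 9.73, 9.59, 10.22 and 10.20 in normal mice 1 to 4. Its lowest, median and highest levels were 10.81, 11.09 and 11.68 in the MLL-AF1p cohort, 10.79, 11.03 and 11.41 in MLL-AF10 and 11.04, 11.29 and 11.58 in MLL-ENL. Among MLL-GAS7 mice it read 10, 10.37, 10.67, 10.92 and 11.22, and among MLL-AF9 mice 10.85, 10.97, 11.09, 11.11 and 11.36. One leukaemia, MLL-GAS7_407, lay within the normal range, and the other 33 lay above it. The rise was 2.16-fold (1.11 ± 0.15, adjusted p = 2.19e-07). Nob1, the endonuclease that makes the 3′ end of 18S RNA, rose 1.83-fold (0.87 ± 0.22, adjusted p = 0.00164). The export and maturation factors Rrp12 and Tsr1 rose 1.58-fold and 1.52-fold (adjusted p = 0.0253 and 0.0101). The call of Rrp12 was lost without normal mouse 1 or 2, and that of Tsr1 without normal mouse 3.

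The PeBoW complex, which is needed for processing of the large subunit precursor, was higher in the RNA of all 3 of its genes. Wdr12 rose 1.65-fold (0.72 ± 0.20, adjusted p = 0.00375), Bop1 1.49-fold (0.57 ± 0.22, 0.0294) and Pes1 1.3-fold (0.38 ± 0.13, 0.0217). The call of Bop1 was lost on leaving out any 1 of the 4 normal mice (adjusted p up to 0.083) and when its probe sets were averaged (0.657). That of Pes1 was lost without normal mouse 1 or 4 (0.150 and 0.096) and with the values as deposited (0.0821). Bop1 was also higher by 0.48 ± 0.12 in the array set with the normal marrows (adjusted p = 0.00793). Pes1 was 1 of only 2 members whose lowest cohort was not MLL-GAS7.

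Of the 10 tested genes of large subunit assembly, 6 were higher. Rrs1, which brings the 5S particle to the nascent large subunit, read 10.14, 10.35, 10.12 and 9.92 in normal mice 1 to 4. Its lowest, median and highest levels were 10.49, 11.01 and 11.56 in the MLL-AF1p cohort, 10.48, 11.06 and 11.65 in MLL-AF10 and 11.33, 11.60 and 11.89 in MLL-ENL. The MLL-GAS7 mice read 10.06, 10.32, 10.58, 11.13 and 11.69, and the MLL-AF9 mice 10.85, 10.99, 11.14, 11.20 and 11.47. Of the 34 leukaemias only 2, both MLL-GAS7, did not exceed the normal range. The rise of Rrs1 was 2.0-fold (1.0 ± 0.19, adjusted p = 6.29e-05).

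Ddx18, an RNA helicase of the same pathway, read 9.87, 9.67, 9.41 and 9.67 in the normal mice. The lowest, median and highest levels were 9.97, 10.71 and 11.11 in the MLL-AF1p cohort, 9.78, 10.37 and 11.04 in MLL-AF10 and 10.54, 11.07 and 11.12 in MLL-ENL. In MLL-GAS7 it read 9.08, 9.83, 10.08, 10.60 and 10.75, and in MLL-AF9 9.95, 10.50, 10.80, 10.89 and 10.91. MLL-GAS7_407 lay below the normal marrows, 1 further MLL-GAS7 and 1 MLL-AF10 mouse lay among them, and the other 31 leukaemias lay above. Ddx18 rose 1.84-fold (0.88 ± 0.22, adjusted p = 0.00111). The remaining rises were 1.79-fold for Rrp1b (adjusted p = 0.00508), 1.77-fold for Nop16 (0.00443), 1.53-fold for Noc2l (0.00376) and 1.41-fold for Ebna1bp2 (0.024). The call of Noc2l was lost when its probe sets were averaged (adjusted p = 0.177). That of Ebna1bp2 was lost in a model with the array set included (adjusted p = 0.0665), within the set of the normal marrows (0.0822) and without normal mouse 1 or 4 (0.057 and 0.144).

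The 4 large subunit genes that did not pass were Nop2, an RNA methyltransferase (0.35 ± 0.22, adjusted p = 0.211), Wdr74 (0.35 ± 0.21, 0.177), the GTPase Gnl3, also called nucleostemin (0.35 ± 0.23, 0.227), and Nip7 (0.17 ± 0.16, 0.419). Wdr74 differed between the array sets by 0.42 ± 0.12 (adjusted p = 0.0276), the last of 5 members that did so beside 7.46% of all genes. It was called higher with the set as a term (0.55, adjusted p = 0.0194) and within the set of the normal marrows (0.52, 0.0296), where Nop2 was called too (0.46, 0.0356). The probe set shared by Mrto4 and its pseudogenes moved by -0.44 ± 0.22 (adjusted p = 0.123), with 1 of 34 leukaemias above all normal marrows.

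Each cohort was then compared with the same 4 normal marrows, so the 5 comparisons are not independent and are given side by side. Higher members numbered 20 of 37 for MLL-AF1p (24.2% of all genes were called higher), 18 for MLL-AF10 (24.8%), 4 for MLL-GAS7 (16.7%), 15 for MLL-AF9 (23.7%) and 27 for MLL-ENL (30.3%). None of the 5 comparisons called a member lower at either an adjusted or an unadjusted p under 0.05 in limma, beside 12.3%, 11.8%, 10.4%, 9.86% and 11.1% of all genes called lower in the same order. At an unadjusted p the higher members numbered 24, 20, 8, 22 and 32, beside 29.2%, 29.8%, 23.2%, 30% and 35.2% of all genes. The median changes of the members were 0.60, 0.53, 0.18, 0.60 and 0.84, against 0.14, 0.15, 0.11, 0.19 and 0.23 over all genes. In MLL-GAS7 the share of members called did not exceed that of all genes, adjusted or not, and the 4 members were Nop10, Ltv1, Wdr43 and Pes1.

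Single arrays weighed on these counts, and the shares of all genes in the fits without them are not given here. Without MLL-GAS7_407 the MLL-GAS7 count rose from 4 to 12, and without MLL-AF9_305 the MLL-AF9 count rose from 15 to 23. Within the array set of the normal marrows, which holds 2 MLL-AF9 mice, that cohort gave 5. Ltv1 showed the span across cohorts: its change was 0.70 ± 0.19 in MLL-GAS7, 1.12 ± 0.18 in MLL-AF10, 1.14 ± 0.19 in MLL-AF9, 1.23 ± 0.17 in MLL-AF1p and 1.37 ± 0.18 in MLL-ENL, each called. Fbl (0.52 ± 0.18, adjusted p = 0.0206), Nop58 (0.82 ± 0.33, 0.0459), Utp18 (0.76 ± 0.20, 0.00277), Wdr75 (0.82 ± 0.24, 0.00606), Nop2 (0.66 ± 0.26, 0.0412) and Bop1 (0.80 ± 0.25, 0.0102) passed against normal in MLL-ENL and did not pass in the other cohorts, which is no test of a difference between cohorts.

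**Figure D2:**
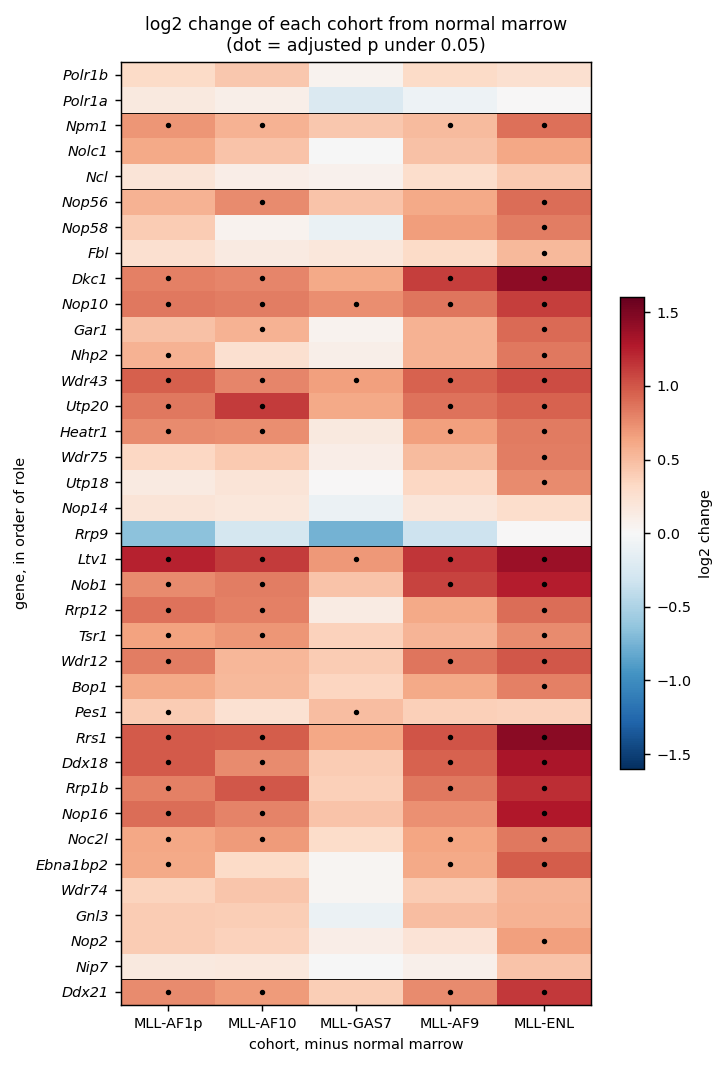
Log2 change of each member (rows, in order of role) in each cohort minus normal marrow (columns), red higher and blue lower, with a dot where the adjusted p was under 0.05. The MLL-ENL column holds 27 dots and the MLL-GAS7 column 4, and no dot marks a lower member.

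The cohort means were next compared with each other, and the normal marrows entered only the estimate of the spread. The F test that the 5 cohort means are equal called 2 of 37 members, Ebna1bp2 and Utp18, against 8.09% of all genes. MLL-GAS7 had the lowest mean of the 5 cohorts in 35 members and MLL-ENL the highest in 33. The shares of all genes with these orders were not counted, so the orders are not read as particular to the members. The range between the lowest and highest cohort mean ran from 0.25 (Pes1) to 0.94 (Ebna1bp2). Compared with the mean of the other 4 cohorts, MLL-GAS7 had 3 members lower and 0 higher (3.59% and 1.19% of all genes), and MLL-ENL had 5 higher and 0 lower (3.69% and 1.28%). At an unadjusted p under 0.05 there were 21 members lower and 0 higher in MLL-GAS7 (14.0% and 4.76% of all genes) and 21 higher and 0 lower in MLL-ENL (16.9% and 4.97%). The median change was -0.41 in MLL-GAS7 (-0.08 over all genes), with 1 of 37 above 0, and 0.32 in MLL-ENL (0.09 over all genes), with 35 above 0. The shares of all genes above 0 were not counted. Each of these comparisons contains the other cohort among its 4, so they are not independent.

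In the other 3 cohorts limma called 0 members in either direction. The shares of all genes called against the other cohorts were 0.78% higher and 1.55% lower for MLL-AF1p, 0.195% higher and 0.113% lower for MLL-AF10, and 0.293% higher and 0.075% lower for MLL-AF9. At an unadjusted p under 0.05 the only member was 1 higher for MLL-AF10, with 0 for MLL-AF1p and MLL-AF9. All genes gave 5.33% higher and 8.82% lower for MLL-AF1p, 4.75% and 5.27% for MLL-AF10, and 5.09% and 3.14% for MLL-AF9. Their medians were 0.03, -0.02 and 0.04, and within the array set of the normal marrows 0.04, 0.19 and -0.25.

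Ebna1bp2, an assembly factor of the large subunit, had the smallest adjusted p among cohorts, 0.012. It read 10.09, 10.32, 10.16 and 9.75 in normal mice 1 to 4. The lowest, median and highest levels were 10.10, 10.58 and 11.17 in the MLL-AF1p cohort, 9.75, 10.43 and 10.72 in MLL-AF10 and 10.95, 10.99 and 11.24 in MLL-ENL. Readings of the MLL-GAS7 mice were 9.77, 9.79, 9.86, 10.21 and 10.91, and those of the MLL-AF9 mice were 10.26, 10.34, 10.45, 11.16 and 11.18. In MLL-ENL all 7 mice exceeded every MLL-GAS7 mouse and every MLL-AF10 mouse, and 1 MLL-GAS7 mouse exceeded the normal range. The change was 0.58 ± 0.15 in MLL-ENL (adjusted p = 0.0163) and -0.59 ± 0.17 in MLL-GAS7 (0.0303). The other kept probe set of Ebna1bp2, a dimmer one, gave an adjusted p of 0.724 in the F test. When its probe sets were averaged these calls were lost, with adjusted p = 0.0691 in the F test, 0.0960 in MLL-ENL and 0.0780 in MLL-GAS7.

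Utp18, a processome subunit, followed with 0.0299. It read 9.70, 9.43, 8.95 and 9.32 in the normal mice. The lowest, median and highest levels were 8.63, 9.61 and 9.92 in the MLL-AF1p cohort, 9.11, 9.53 and 9.94 in MLL-AF10 and 10.02, 10.11 and 10.27 in MLL-ENL. The MLL-GAS7 mice read 8.76, 9.16, 9.37, 9.42 and 10.01, and the MLL-AF9 mice 9.28, 9.29, 9.78, 9.95 and 10.12. The MLL-ENL mice lay in a narrow band above all normal marrows and above all MLL-AF1p and MLL-AF10 mice, while the other cohorts overlapped the normal range. Utp18 was higher in MLL-ENL than in the other cohorts by 0.59 ± 0.14 (adjusted p = 0.0107).

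The next 4 members by the F test did not pass it: Ltv1 (adjusted p = 0.0639), Heatr1 (0.0662), Rrs1 (0.0775) and Nhp2 (0.0817). Heatr1 read 10.16, 10.20, 10 and 9.96 in normal mice 1 to 4. Its lowest, median and highest levels were 10.19, 10.96 and 11.08 in the MLL-AF1p cohort, 10.48, 10.82 and 11.13 in MLL-AF10 and 10.79, 10.90 and 11.18 in MLL-ENL. The MLL-GAS7 mice read 9.65, 9.82, 10.32, 10.50 and 10.92, and the MLL-AF9 mice 9.99, 10.70, 10.90, 10.97 and 11.08. Of the MLL-GAS7 mice 2 lay below the normal range and 3 above it, and all MLL-AF10 and MLL-ENL mice lay above. Against the other cohorts MLL-GAS7 changed by -0.58 ± 0.15 for Heatr1 (adjusted p = 0.0179) and by -0.51 ± 0.14 for Ltv1 (0.0254). The first of these calls was lost under 3 of 11 alternative processings and in 2 of 38 fits without 1 array. With the probe sets of Heatr1 averaged its change was -0.46 (adjusted p = 0.128). For Ltv1 the call was lost in 2 and 2 of them.

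Nhp2 of the box H/ACA core read 11.27, 11.05, 10.93 and 11.07 in the normal mice. The lowest, median and highest levels were 10.77, 11.76 and 12.02 in the MLL-AF1p cohort, 10.81, 11.43 and 11.72 in MLL-AF10 and 11.50, 11.98 and 12.17 in MLL-ENL. For the MLL-GAS7 mice the levels were 10.55, 11.04, 11.06, 11.20 and 12.01, and for the MLL-AF9 mice 10.73, 11.45, 11.83, 12.05 and 12.09. All 7 MLL-ENL mice lay above the normal range, and in each other cohort at least 1 mouse did not. In MLL-ENL, Dkc1 (0.60 ± 0.18, adjusted p = 0.0459), Rrs1 (0.56 ± 0.16, 0.0321) and Ddx21 (0.49 ± 0.15, 0.0448) were also higher than in the other cohorts. The call of Dkc1 was lost under 6 of 11 alternative processings and in 23 of 38 fits without 1 array. That of Ddx21 was lost in 4 and 17 of them, and that of Rrs1 in 3 and 5.

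**Figure D3:**
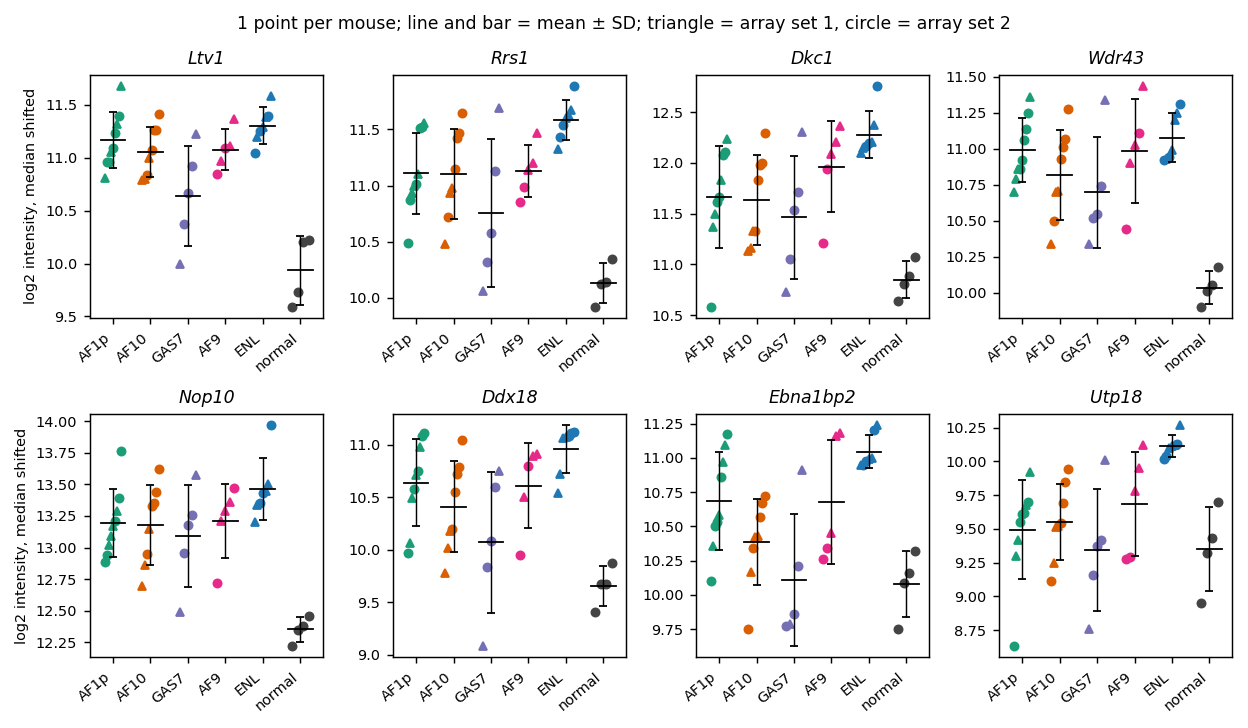
Levels of 8 members (log2 intensity + 46.1 after the median shift) in each mouse by group, with the mean and SD of each group; triangles are arrays of the first set and circles of the second. For Wdr43 and Nop10 all 34 leukaemias lie above the 4 normal marrows, and for Ebna1bp2 and Utp18 the MLL-ENL mice form a tight cluster.

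Leaving out single mice moved these counts. The shares of all genes in those fits are not given here, so the moves are not read as particular to the members. Without MLL-GAS7_407, or without MLL-GAS7_410, the 3 lower members of MLL-GAS7 became 0, without MLL-AF9_305 they became 6, and without MLL-GAS7_406, the MLL-GAS7 mouse with the highest levels, they became 19. The 5 higher members of MLL-ENL became 14 without MLL-GAS7_406, and 2 without MLL-ENL_701, MLL-ENL_760, MLL-ENL_741, MLL-ENL_703 or MLL-ENL_742. They were 3 without any 1 of MLL-ENL_702, MLL-ENL_774, MLL-GAS7_407, MLL-GAS7_408, MLL-GAS7_410, MLL-AF9_305, MLL-AF9_307, MLL-AF9_310, MLL-AF10_782A, MLL-AF10_797A, MLL-AF10_798A or MLL-AF10_805A. The F test called 16 members without MLL-GAS7_406, 6 without MLL-AF9_305 and 4 without MLL-AF1p_803. It called 1 without any 1 of MLL-GAS7_410, MLL-ENL_701, MLL-ENL_702, MLL-ENL_703, MLL-ENL_741 or MLL-ENL_760. Within the array set of the normal marrows alone, with 22 arrays, the 3 counts were 0, while the medians were -0.39 in MLL-GAS7 and 0.40 in MLL-ENL.

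Each mouse was then summarised by the median deviation of the 37 members from their normal means. It ran from -0.13 to 0.09 in the normal mice and from 0.73 to 1.20 in MLL-ENL. The ranges were -0.01 to 0.94 for MLL-AF1p, 0.09 to 1.02 for MLL-AF10, -0.40 to 0.92 for MLL-GAS7 and -0.03 to 0.87 for MLL-AF9. All 7 MLL-ENL mice lay above the normal mice, with 31 to 36 of the 37 members each above all normal marrows, beside 42.4% to 50.7% of all genes. At the ends, MLL-AF10_783A had all 37 members above all normal marrows (45.6% of all genes), and MLL-GAS7_407 had 2 above (25.4% of all genes) and 22 below. The median deviation over all genes ran from -0.13 to 0.34 in the leukaemias, with -0.13 in MLL-GAS7_407 and 0.19 to 0.32 in MLL-ENL. The median SD of a member within a cohort was 0.58 in MLL-GAS7 (0.39 over all genes), 0.38 in MLL-AF10 (0.31), 0.37 in MLL-AF9 (0.29), 0.36 in MLL-AF1p (0.37), 0.23 in MLL-ENL (0.28) and 0.19 in normal marrow (0.27).

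Leukaemias with a median deviation under 0.1 were MLL-GAS7_407 (-0.40), MLL-AF9_305 (-0.03), MLL-AF1p_803 (-0.01), MLL-GAS7_410 (0.01) and MLL-AF10_805A (0.09). Of these, MLL-GAS7_407, MLL-AF1p_803 and MLL-GAS7_410 were among the 5 arrays with the brightest spiked hybridisation controls (12.56, 13.06 and 13.42 on the log2 scale), with MLL-AF10_798A (0.29, controls 13.11) and normal mouse 3 (-0.13, controls 12.68). In MLL-AF9_305 and MLL-AF10_805A the controls read 11.83 and 12.22. Probe sets for 18S ribosomal RNA also read high on 4 of these 5 arrays, at 9.62 in MLL-GAS7_407, 10.54 in MLL-AF1p_803, 10.58 in MLL-GAS7_410 and 10.96 in MLL-AF10_798A. They read 6.50 in normal mouse 3 and up to 7.60 in the other normal mice, and 6.95 to 10.11 in the other 30 leukaemias. Without those 5 arrays the leukaemia comparison still called 22 members, MLL-GAS7 against normal called 15, MLL-GAS7 against the other cohorts 0, MLL-ENL against the other cohorts 2 and the F test 1. The median against the other cohorts was then -0.12 in MLL-GAS7 and 0.25 in MLL-ENL. The part of the controls and of the 18S signal in the low values was not tested.

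**Figure D4:**
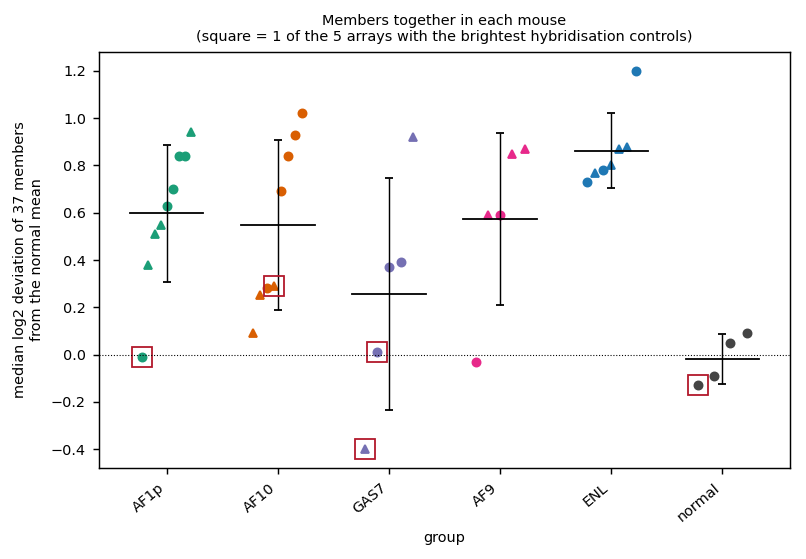
Median log2 deviation of the 37 members from the normal mean in each mouse (points), by group with mean and SD; triangles and circles are the 2 array sets, and squares mark the 5 arrays with the brightest hybridisation controls. MLL-ENL mice sit between 0.73 and 1.20, whereas MLL-GAS7 mice span -0.40 to 0.92.

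Against the other cohorts, late neutrophil genes had medians of the opposite sign to those of the members in MLL-GAS7 and MLL-ENL. In MLL-AF1p, MLL-AF10 and MLL-AF9 their medians were 0.75, -0.01 and -0.66, beside 0.03, -0.02 and 0.04 for the members. For the 9 measured genes the median change against the other cohorts was 0.63 in MLL-GAS7 (1 higher) and -1.03 in MLL-ENL (2 lower), with a summed intensity of 60500 to 217000 in MLL-GAS7 and 16200 to 103000 in MLL-ENL. B cell markers had a median of 0.40 in MLL-GAS7, with 13 of 14 above 0 and 1 called higher, and of 0.06 in MLL-ENL, with 1 called lower. Their summed intensity was 3460 to 9460 in MLL-GAS7 and 2460 to 3170 in MLL-ENL, without overlap. The 19 mitosis genes had medians of -0.15 and 0.24, with none called, and of the primary granule genes 3 of 5 were lower in MLL-GAS7 and 1 higher in MLL-ENL. The part of these cells in the differences between cohorts was not tested. Myc rose 1.09 ± 0.32 against normal (adjusted p = 0.00516), with cohort means of 10.78 in MLL-GAS7 and 11.55 in MLL-ENL, and its F test gave an adjusted p of 0.288. The Mycn probe set used rose by 5.29 ± 0.30, while its other probe set changed by -0.91 ± 0.28 (adjusted p = 0.0104). The Mycn level was highest in MLL-AF10 (15.46, against 11.38 to 12.14 in the other cohorts), where the members' median stood at -0.02 against the other cohorts. Probe sets of Mycl changed by -0.25, 0.37 and 0.81 against normal (adjusted p = 0.268, 0.107 and 0.0475). The part of the Myc family in the levels of the members was not tested.

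Probe sets of the same gene were compared with each other. Of the 68 kept probe sets of the members, 37 were called higher and 0 lower (24.9% and 12.1% of the 29004 kept probe sets), and the F test among cohorts called 2 (6.28%). Of 22 genes with more than 1 kept probe set, 8 had all of them called higher, among them Ddx18 (0.60 to 1.15), Rrp1b (0.55 to 0.84), Rrs1 (1.0 and 1.04), Nop10 (0.72 and 0.87) and Npm1 (0.62 and 0.67). No gene had calls in both directions. In 4 genes the probe sets lay on both sides of 0: Bop1 (0.57 and -0.27), Noc2l (0.61 and -0.15), Nolc1 (0.68 to -0.08) and Polr1a (0.51 to -0.24). The lower probe set of Noc2l was not called (adjusted p = 0.476), and which of the pair was brighter differed between normal and leukaemic marrow. When a gene's probe sets were averaged in place of taking the brightest, the changes of Noc2l and Bop1 were 0.23 (adjusted p = 0.177) and 0.15 (0.657). The second probe sets of Nip7 (0.37, adjusted p = 0.0141), Nhp2 (0.51, 0.0283) and Nolc1 (0.68, 0.00809) were called although the one used for the gene was not. After probe sets whose suffix marks possible reading of several genes were removed, 33 members could be tested and 20 were higher. The share of all genes in that fit is not given here.

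**Figure D5:**
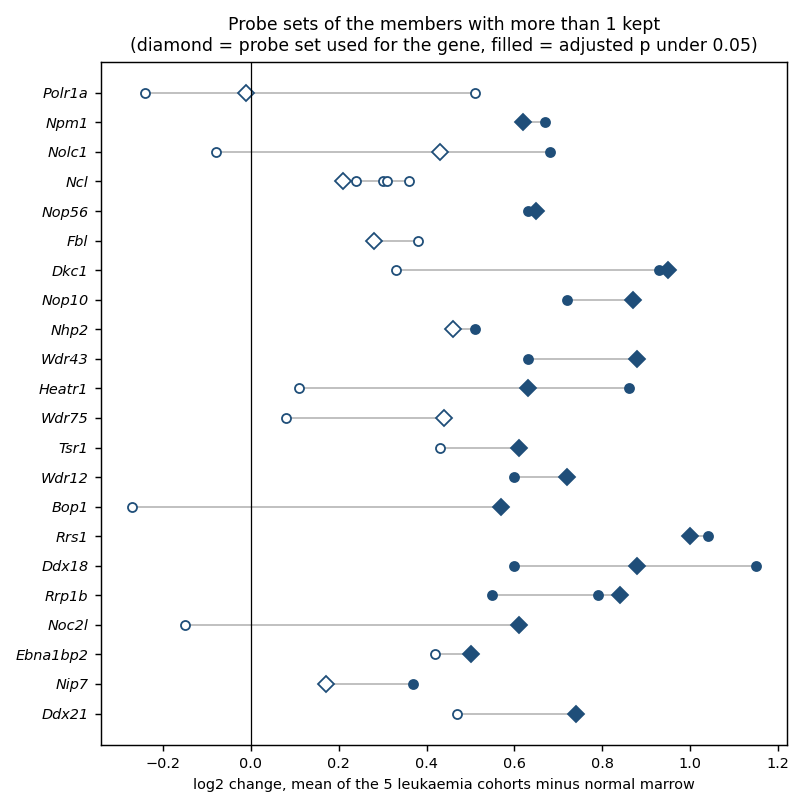
Log2 change (mean of the 5 cohorts minus normal marrow) of each kept probe set of the 22 members with more than 1; diamonds are the probe sets used for the gene, and filled symbols passed an adjusted p of 0.05. Ddx18, Rrs1, Rrp1b and Npm1 have all their symbols filled, while Polr1a, Nolc1, Bop1 and Noc2l span 0.

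The other genes of the pathway, a list of 127 of which 121 were tested, were read in the same fits. Against normal marrow 70 were higher and 1 lower (29.1% and 12.8% of all genes), with a median of 0.47 (0.16 over all genes). The small subunit list had 29 of 49 higher, led by the GTPase Bms1 (3.18-fold, adjusted p = 5.67e-12), Rrp36 (2.49-fold), Utp3 (2.10-fold) and Wdr3 (2.09-fold), each above all normal marrows in 34 of 34 leukaemias. Its one lower gene was the kinase Riok3 (-0.42 ± 0.14, adjusted p = 0.0161). In the large subunit list 28 of 52 were higher and 0 lower, led by the RNA methyltransferase Nsun5 (2.48-fold), Nsa2 (2.36-fold), Ccdc86 (2.25-fold) and Rsl24d1 (2.21-fold). Of 9 snoRNP assembly genes 7 were higher, led by Shq1 (2.33-fold), a chaperone of Dkc1, and Nufip1 (2.10-fold). Of 11 RNA polymerase I genes 6 were higher, led by Tcof1 (2.15-fold), which promotes ribosomal RNA transcription, and the selectivity factor subunits Taf1c (1.73-fold) and Taf1b (1.64-fold). Against the other cohorts 5 of the 121 were lower in MLL-GAS7 (3.59% of all genes), with a median of -0.22 (-0.08 over all genes). In MLL-ENL 8 were higher (3.69% of all genes), with a median of 0.24 (0.09 over all genes). The F test called 3 of the 121, beside 8.09% of all genes, namely Rbm28 (adjusted p = 0.00882), Wdr46 (0.0235) and Ccdc86 (0.0353).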

How the data were processed

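Each of the 38 samples was read on 1 array. The deposited values are intensities on a linear scale, 1 for each probe set on each array, and had been scaled by the authors: on all arrays the mean without the top and bottom 2% of values is 500. Software behind these values was not given in the sources used here. Symbols came from the platform annotation, in which 34958 probe sets carry 1 symbol, 932 several and 9211 none, and gene positions and promoters from RefSeq. From the intensities log2(intensity + 46.1) was computed, 46.1 being the 25th percentile of all values, and all arrays were then given 1 common median by a shift. Kept were the probe sets that 4 or more arrays, as many as the normal group holds, read above the median of the array. The kept probe set with the highest mean stood for its gene.

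A model of 6 group means was fitted to all 13333 genes with limma 3.58.1 in R 4.3.3, with moderated tests, 2-sided, on 36.93 degrees of freedom (32 from the residuals) and Benjamini-Hochberg adjustment over all genes within each comparison. The fit was tested on simulated data. Values in every mouse, or the lowest, median and highest in cohorts of more than 5, are given for the 6 called members with the largest rise and the 6 with the smallest adjusted p among cohorts. From the other pathway lists up to 4 called genes with the largest change in each direction could be named. The members and all lists were chosen with earlier results of these data known. Array sets were read from the values of 30 probe sets that are not members, and no label names them. P-values measure the spread between these mice, and nothing says whether any shared a donor or an infection. Scaling, pseudocount, filter, choice of probe set, array weights, array set and each single array were varied.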

Additional observations from a re-analysis of the deposited data

Results flagged for a closer look

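An array was marked when its gap to the nearest other array of its group exceeded the critical share of the group's range. Over the 222 combinations of member and group 17 were marked, and chance marks about 1 in 20. In MLL-ENL_742 these were the highest values of Nolc1 (11.23), Dkc1 (12.76), Nop10 (13.97) and Heatr1 (11.18) among the 7 MLL-ENL mice, and its median deviation of the members, 1.20, also stood apart. In MLL-AF9_305 they were the lowest values of Utp20 (8.87), Tsr1 (9.72), Rrp1b (9.02) and Gnl3 (10.3) among 5. MLL-AF1p_803 had the lowest Nop58 (9.04), Utp18 (8.63) and Heatr1 (10.19) of 9, and MLL-GAS7_407 the lowest Bop1 (9.26), Nop16 (8.22) and Wdr74 (8.47) of 5. The other 3 were the highest Rrp9 in MLL-AF10_783A (9.33), the highest Rrp12 in MLL-AF1p_804 (8.99) and the lowest Nop56 in normal mouse 3 (10.52).

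Differences between cohorts past the threshold were those of Ebna1bp2 and Utp18 in the F test (adjusted p = 0.012 and 0.0299). In MLL-GAS7 against the other cohorts they were Heatr1 (-0.58), Ltv1 (-0.51) and Ebna1bp2 (-0.59). In MLL-ENL against the other cohorts they were Dkc1 (0.60), Utp18 (0.59), Ebna1bp2 (0.58), Rrs1 (0.56) and Ddx21 (0.49).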

How the results depend on the processing

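Among the changes recomputed under 11 alternatives and without each of the 38 arrays, no called change of a member turned its sign. Some uncalled ones did. Under quantile normalization 34 instead of 35 changes against normal were above 0. Wdr75 in MLL-ENL against the other cohorts went from 0.48 to -0.12 after removal of probe sets that may read several genes. The medians of MLL-AF1p, MLL-AF10 and MLL-AF9 against the other cohorts, all within 0.04 of 0, changed sign under some settings. The farthest was -0.25 for MLL-AF9 within the array set of the normal marrows. Members that passed a comparison under no setting were not searched singly for a change of sign in it, so this list is not complete. For leukaemia against normal the count of higher members stayed between 20 and 27 under the alternatives and between 17 and 24 on leaving out 1 array. For most of these fits, here and above, the shares of all genes are not given. A changed count is therefore not read as particular to the members. Against normal, MLL-GAS7 gave 4 higher members, 13 with array weights and 15 on leaving out those 5 arrays whose hybridisation controls were brightest, an alternative chosen after seeing the data. MLL-AF9 gave 15, 26 with array weights and 5 within the array set of the normal marrows. Against the other cohorts, the 3 lower members of MLL-GAS7 became 1 with the mean of the probe sets, 0 within that array set and 0 without the 5 arrays. The 5 higher members of MLL-ENL became 3 with a pseudocount of 16, 3 with no filter, 3 after removing probe sets whose suffix marks possible reading of several genes, 0 within that set and 2 without the 5 arrays. The F test count of 2 became 5 with values as deposited, 4 with quantile normalization, 7 with array weights, 1 with the mean of the probe sets, 0 within that set and 1 without the 5 arrays. The causes were not tested, and the array set and the 5 arrays also leave fewer mice. On leaving out 1 array the counts ran from 3 to 12 (MLL-GAS7 against normal), 11 to 23 (MLL-AF9 against normal), 15 to 24 (MLL-AF1p against normal), 13 to 19 (MLL-AF10 against normal), 25 to 29 (MLL-ENL against normal), 0 to 19 (MLL-GAS7 against the others), 2 to 14 (MLL-ENL against the others) and 1 to 16 (F test). No paired analysis was possible because the labels number the mice of each cohort separately. The 4 normal marrows limit every comparison with normal.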
